A study of Mus musculus with 6 samples.

Results

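The genes described here carry fatty acids from the blood into the cardiomyocyte and through mitochondrial β-oxidation. They are 38 named genes, chosen by symbol, of the 56748 genes counted by RNA-seq in 3 Pontin cTG and 3 WT hearts. All 38 were found in the table, and all 38 passed the filter on low counts. In Pontin cTG mice a human Pontin (*RUVBL1*) cDNA with a Flag tag is driven by the mouse αMHC promoter, which is active in cardiomyocytes. Pontin is an ATPase of chromatin-remodelling complexes. WT mice are littermates without the transgene, and all are C57Bl/6. All 6 were males aged 10 weeks when a mini-osmotic pump began to deliver angiotensin II (Ang-II, a peptide that raises blood pressure), 1.5 mg daily per kg of body weight, until day 14, so no heart without Ang-II enters the comparison. Each library is RNA of 1 heart and holds every cell type of the tissue. The number of founder lines is not given in the sources used here. The comparison asks which transcripts differ between hearts with and without extra Pontin after Ang-II.

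Long-chain fatty acids are the main fuel of the adult heart. Lipases free them from lipoproteins and stored triglyceride, carriers bring them in, acyl-CoA synthetases activate them, and the carnitine shuttle moves them into mitochondria. There the β-oxidation spiral shortens the chain, and the electrons pass through flavoproteins to the respiratory chain. The nuclear receptors of the PPAR and ERR families are known regulators of many of these genes, and the pathway is known to be turned down in the failing heart.

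Libraries held 12436822 to 16888124 counts, the Pontin cTG libraries being the larger ones. Counts were scaled between libraries by TMM, and genotypes were compared in edgeR. Pontin cTG replicate 2 stood apart from the other libraries, with a score of 52.0 on the first principal component of all genes tested against -24.2 to 17.1 in the other 5. The mouse *Ruvbl1* gene stood at 218 ± 2.72 normalised counts for WT against 247 ± 5.79 for Pontin cTG (SD over n = 3 mice), with no overlap. Human cDNA reads may or may not be counted under the mouse gene. This is therefore no measure of the transgene, nor of the mouse gene alone. Of the 10 cardiomyocyte markers, 0 were at 0, and their summed level was 40261 to 50722 CPM (counts scaled to a common library total) in WT and 38169.8 to 50564 in Pontin cTG hearts. Adipocytes share many fatty acid genes. The 6 white adipocyte markers summed to at most 1.10 CPM in any library, and the brown adipocyte genes *Ucp1* and *Otop1* were at 0 counts in all 6. The whole list of 6 brown adipocyte markers summed to 106 CPM in Pontin cTG replicate 2 and up to 138 in the others. Most of that sum was *Ppargc1a* and *Cidea*, which went opposite ways in that library. *Ppargc1a* was lowest there (771 normalised counts against 1325 to 1456 in the others) and *Cidea* highest (468 against 383 to 428).

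No gene of the list passed the test between Pontin cTG and WT hearts. Of the 38 genes, 0 had an adjusted p under 0.05 (quasi-likelihood test of edgeR, adjusted after Benjamini-Hochberg over 13888 tested genes), and the background was 0% of genes. DESeq2 also called 0 of them, with 1 gene, *Etfb*, at an unadjusted p under 0.05 and higher (background 0.792%). In Pontin cTG hearts 19 genes had a higher and 19 a lower fitted level than in WT, and 50.2% of all genes tested were higher. The median log2 fold change was 0.00033, beside 0.0013 over all genes tested, and single genes ran from -0.22 in *Cpt1a* to 0.39 in *Etfb*. An unadjusted p under 0.05 was found for 1 higher gene, *Etfb* (2.63% of the list against 1.02% of all genes), and 0 lower genes (1.03% of all genes). The groups did not overlap for 4 genes with higher expression, *Slc27a1*, *Fabp3*, *Etfb* and *Acot13* (10.5% of the list against 4.7% of all genes), and for 1 with lower expression, *Cpt1a* (2.63% against 3.63%). The two-sided exact permutation test gave p = 0.1 for each of these 5 genes, which is the smallest value it can reach between 3 and 3 mice. In bulk tissue, fewer cells of a type and less RNA per cell cannot be told apart.

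What the genes did share was a low level in a single heart. Pontin cTG replicate 2 was the lowest of the 6 libraries for 26 of the 38 genes (68.4%, where it was lowest for 30.7% of all genes tested), and Pontin cTG replicate 3 was the highest for 23 (60.5% against 18.3%). Replicate 2 lay below both other Pontin cTG hearts for 30 genes (78.9% against 40.5% of all genes), by a median of -0.46 on the log2 scale against the mean of the other 2. It lay above both for 5 genes, *Angptl4*, *Acsl5*, *Cpt1b*, *Etfb* and *Acot13*. The SD among Pontin cTG hearts was larger than that among WT hearts for 36 of the 38 genes, and for 69.5% of all genes tested. The 38 genes together took 2.40%, 2.37% and 2.41% of all counts for WT hearts 1 to 3, against 2.53%, 2.09% and 2.71% for Pontin cTG hearts 1 to 3. *Lpl* alone gave 86490 of the 316679 counts in WT replicate 1, so abundant genes weigh most in this sum. By this sum the 3 WT hearts lay close together, with Pontin cTG hearts on both sides of them.

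**Figure D1:**
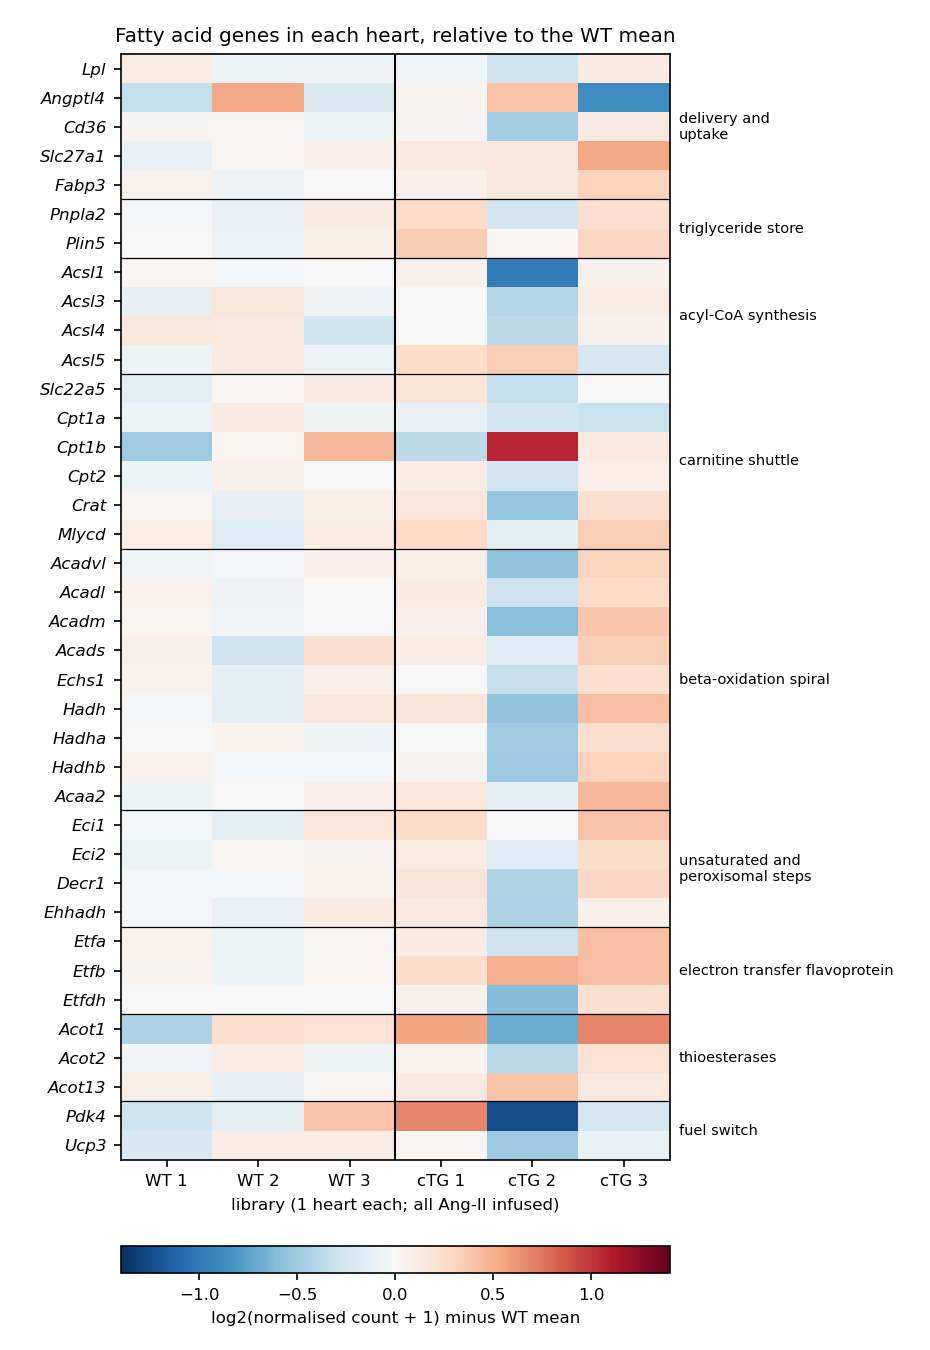
Colour gives log2(normalised count + 1) minus the mean of the 3 WT hearts, for each of the 38 genes (rows, grouped by role) in each heart (columns). Pontin cTG replicate 2 is blue, below the WT mean, through most rows, with *Pdk4* and *Acsl1* deepest, while Pontin cTG replicates 1 and 3 are mostly red.

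Without Pontin cTG replicate 2, 34 of the 38 genes had a higher fitted level in Pontin cTG hearts, where 48.8% of all genes did, and their median log2 fold change was 0.18. The other 2 Pontin cTG hearts lay above every WT heart for 21 genes (55.3% against 11% of all genes), and 11 reached an unadjusted p below 0.05 (28.9% against 2.05%). None of the 38 passed the adjustment over all genes in that fit, where the smallest adjusted p in the list was 0.889 in edgeR. Leaving out Pontin cTG replicate 3 instead gave 13 higher genes and a median of -0.077, so the direction of the list depended on which heart was left out. Nothing in the labels sets either library apart. The study's methods state that its RNA-seq analysis left out an outlier seen in principal component analysis. They name neither the library nor the experiment it came from. For Pontin cTG against WT, the study's figure legend lists 3 mice per genotype, as many as were compared here. The study also reports, under statistics, that nothing was dropped. These statements therefore give no ground for taking Pontin cTG replicate 2 as that outlier.

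Other measures moved with Pontin cTG replicate 2, and their part in its low fatty acid transcripts was not tested. The 8 endothelial markers summed to 1408 CPM there, against 855 to 1034 in the other 5 libraries. The 8 fibroblast markers summed to 2296 CPM, the highest of the 6, with WT replicate 2 next at 2147 and the others between 1049.8 and 1377. Of these markers *Postn* was highest in Pontin cTG replicate 2 (4856 normalised counts against 620 to 2432), as were *Col1a1* and *Col1a2*. *Col3a1*, *Pdgfra*, *Dcn*, *Lum* and *Fn1* were highest in WT replicate 2 by normalised counts. The cardiomyocyte markers, a sum led by *Myh6*, reached 50564 CPM in Pontin cTG replicate 2 and 50722 in WT replicate 2, the 2 highest sums. Single markers differed: *Tnnt2* and *Myl2* were highest in Pontin cTG replicate 2, whereas *Ryr2*, with 10842 normalised counts against 16789 to 24380.1, and *Pln*, with 20989.8 against 21455 to 28003, were lowest there. The 6 atrial markers summed to 609 CPM against 29.5 to 133 elsewhere, but nearly all of it was *Nppa*, the gene of ANP, which ventricles under load also express (9011 counts, with 416 to 1648 in the others). The atrial genes *Myl7*, *Sln* and *Bmp10* were at 0 to 6 counts in every library. *Myl4* and *Dkk3*, the other genes of that list, were highest in Pontin cTG replicate 2, with 43.7 normalised counts against 8.81 to 28.3 and 205 against 34.7 to 104. Macrophage markers, at 518 CPM, lay within the range of the other libraries (309 to 644), as did smooth muscle and pericyte markers (1111, with 994 to 1138 in the others) and erythroid markers (1486, with 799.6 to 1565). No marker of these lists passed the adjusted test between genotypes in edgeR, and 1, the macrophage gene *Mrc1*, did so unadjusted. A library's deviation from the mean followed gene length in the same library, with a Spearman correlation across all 13888 genes of -0.20 in Pontin cTG replicate 2, -0.16 in replicate 3 and 0.082 to 0.18 in the other 4. Across the 38 genes it was -0.39 in Pontin cTG replicate 2 and -0.074 to 0.48 in the others. Genes are not independent replicates, and the libraries also differ in depth.

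Several of these genes were counted over sequence that they share with other genes, which limits 2 of them in particular. *Cpt1b* (chromosome 15 from 89300608 to 89310066 on the table's GRCm39 coordinates, minus strand) encodes the muscle form of carnitine palmitoyltransferase I, the gate through which long-chain acyl groups enter the mitochondria of the heart. It had the lowest level of the 38 genes, 0.823 CPM per kilobase, and 21, 30 and 41 raw counts for WT hearts 1 to 3 against 26, 82 and 42 for Pontin cTG hearts 1 to 3. The table also lists *Gm44502* (ENSMUSG00000116461), a protein-coding gene on the same strand that spans all of *Cpt1b* (from 89300608 to 89313899) and had 0 counts in all 6 libraries. In GENCODE M21, 2744 of the 3372 exon bases of *Cpt1b* (81.4%) also lie in exons of *Gm44502*. featureCounts, which the submitters' processing notes name, by default leaves out a read that falls in exons of more than 1 gene. The setting used is not given in the sources used here, and the effect on *Cpt1b* was not tested. Its counts are therefore uncertain.

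*Etfb*, the β subunit of electron transfer flavoprotein, shares 58.2% of its 1164 exon bases with other genes, mainly *Etfbl* (ENSMUSG00000107482, listed under an older name in GENCODE M21), which had at most 1 count in any library. The effect on *Etfb* was not tested either, so its counts are uncertain as well. *Acadvl* shares 42.9% of its exon bases, all with *Dvl2* on the opposite strand, and whether counting used strand is not given in the sources used here. *Fabp3* shares 19.6% of its exon bases, and 29.2% of its 50-base transcript words also occur in the pseudogene *Fabp3-ps1*. The near-identical copies *Acot1* and *Acot2* shared 19.2% and 27.7% of their words with other genes, mostly with each other, so their counts may be split between them. For *Slc22a5* the share was 26.3%, mostly with its neighbours in the gene family, and for *Hadhb* 19.7%, with pseudogenes. The table's gene lengths equal the exon lengths of GENCODE M21 for all 38 genes, and 26 of them share no exon base with another gene.

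**Figure D2:**
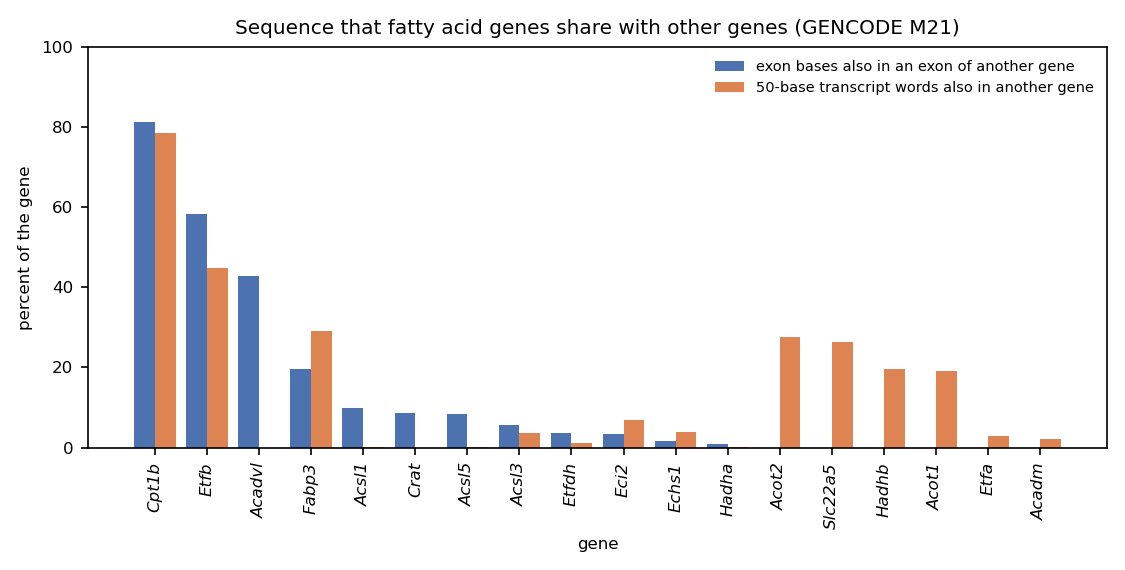
Bars give, for the 18 genes that share most, the percent of exon bases that also lie in an exon of another gene (blue) and the percent of 50-base transcript words that also occur in another gene's transcripts (orange), in GENCODE M21. *Cpt1b* (81.4% of exon bases) and *Etfb* (58.2%) stand above the rest, and *Acot1* and *Acot2* share words but no exon base.

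Per kilobase of gene length, *Fabp3*, the heart fatty acid binding protein that carries fatty acids through the cytosol, had by far the highest level, with a mean of 3962 CPM per kilobase over 6 hearts (range 3582 to 4632). The next 4, *Lpl*, *Acaa2*, *Acadl* and *Cd36*, had means of 587, 531, 525 and 494 on the same scale, and their ranges over hearts overlapped. *Etfa* (329), *Acadm* (293), *Acot13* (268) and *Pdk4* (232) followed, with overlapping ranges as well. At the low end stood *Acsl5* (3.98), *Angptl4* (3.61), *Acsl4* (2.93), *Acsl3* (1.43) and *Cpt1b* (0.823). These levels depend on the table's gene lengths, which add up every annotated exon, so that genes with many retained introns are set too low. The level of *Cpt1b* also rests on uncertain counts, since 81.4% of its exon bases also lie in exons of *Gm44502*.

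**Figure D3:**
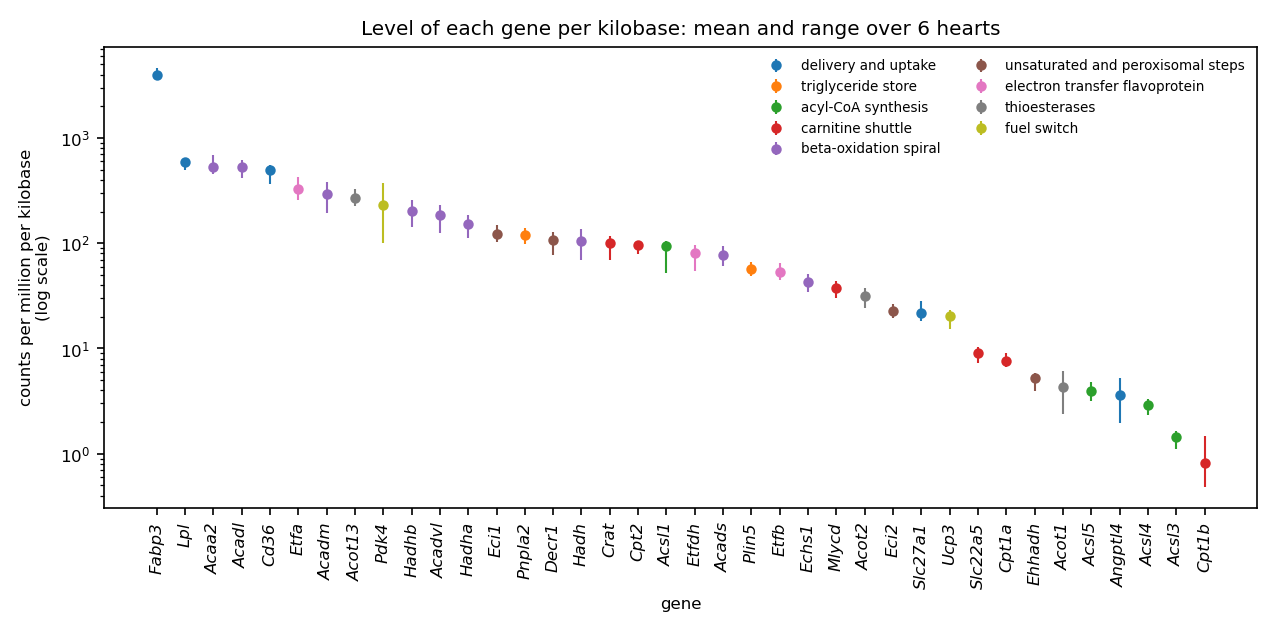
Points give the mean level of each gene over 6 hearts in CPM per kilobase on a log axis, bars the lowest and highest heart, and colours the role. *Fabp3* lies alone at the top at 3962 and *Cpt1b* at the bottom at 0.823, and *Pdk4* has the longest bar on the log axis. The counts of *Cpt1b* are uncertain, because it shares most of its exon bases with *Gm44502*.

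Of the 5 genes of delivery and uptake, 2 had a higher and 3 a lower fitted level in Pontin cTG hearts, and 0 passed the test. *Slc27a1*, the fatty acid transport protein FATP1, had normalised counts of 1513, 1644 and 1692 for WT hearts 1 to 3 against 1774, 1803 and 2345 for Pontin cTG hearts 1 to 3. Every Pontin cTG heart lay above every WT heart, replicate 3 the most. Its means were 1617 ± 92.9 normalised counts for WT against 1974 ± 322 for Pontin cTG (SD over n = 3 mice), a log2 fold change of 0.29 ± 0.15 (SE) with an adjusted p of 0.999 in edgeR. *Fabp3* had normalised counts of 44404, 41526 and 42910.5 for WT hearts 1 to 3 against 45221, 47839.7 and 53696 for Pontin cTG hearts 1 to 3. Its groups did not overlap either, though WT replicate 1 and Pontin cTG replicate 1 lay close together. The log2 fold change of 0.19 ± 0.13 (SE) had an adjusted p of 0.999 in edgeR.

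*Lpl*, lipoprotein lipase, which frees fatty acids from circulating triglyceride, had normalised counts of 95245, 84953 and 85473 for WT hearts 1 to 3 against 85977, 72671 and 95501 for Pontin cTG hearts 1 to 3. The groups overlapped, with Pontin cTG replicate 2 lowest, and the log2 fold change was -0.064 ± 0.14 (SE). *Cd36*, the fatty acid translocase of the cell membrane, had normalised counts of 26457, 25995 and 24637 for WT hearts 1 to 3 against 26405, 18359 and 27931 for Pontin cTG hearts 1 to 3. The other 5 hearts lay close together above Pontin cTG replicate 2, with a log2 fold change of -0.085 for all hearts (SE 0.18) and 0.081 without that library. *Angptl4*, a secreted inhibitor of lipoprotein lipase that PPARs induce, went the other way among the hearts. It had normalised counts of 143, 260.2 and 157 for WT hearts 1 to 3 against 185, 238 and 97.9 for Pontin cTG hearts 1 to 3. Its highest values were in WT replicate 2 and Pontin cTG replicate 2 and its lowest in Pontin cTG replicate 3, and the log2 fold change was -0.11 ± 0.33 (SE).

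Both genes of the triglyceride store had higher fitted levels without passing the test. *Plin5*, the perilipin that ties lipid droplets to mitochondria, had 1535 ± 85.4 normalised counts for WT against 1797 ± 213 for Pontin cTG (SD over n = 3 mice), a log2 fold change of 0.23 ± 0.14 (SE). *Pnpla2*, the adipose triglyceride lipase ATGL that opens the store, had a log2 fold change of 0.10 ± 0.17 (SE). For both, Pontin cTG replicates 1 and 3 lay above every WT heart, and without replicate 2 the log2 fold changes were 0.32 and 0.25. Without replicate 3 instead they were 0.20 and 0.030.

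Of the 4 acyl-CoA synthetases, which attach fatty acids to coenzyme A, *Acsl1* is the main form of the heart. It had normalised counts of 15335, 14681 and 15035 for WT hearts 1 to 3 against 15617, 7615 and 15655 for Pontin cTG hearts 1 to 3. Pontin cTG replicate 2 stood far below the other 5 hearts, which lay within a narrow range. The log2 fold change was -0.21 with all hearts (SE 0.25) and 0.059 without that library. *Acsl3* and *Acsl4* had log2 fold changes of -0.090 and -0.10, and *Acsl5* of 0.14, with SEs of 0.17 to 0.25 over the 4 genes.

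The carnitine shuttle held the gene of the list with the lowest log2 fold change. *Cpt1a* (ENSMUSG00000024900, chromosome 19 from 3372334 to 3435733 on GRCm39), the form of carnitine palmitoyltransferase I that prevails in liver and in the foetal heart, had normalised counts of 846, 969 and 855 for WT hearts 1 to 3 against 834, 736 and 716 for Pontin cTG hearts 1 to 3. Every Pontin cTG heart lay below every WT heart, with means of 890.0 ± 68.7 normalised counts for WT against 762 ± 63.3 for Pontin cTG (SD over n = 3 mice). WT replicate 1 and Pontin cTG replicate 1 lay close together. When counts were scaled by library size alone, 0 genes of the list were lower without overlap. The log2 fold change of *Cpt1a*, -0.22 ± 0.13 (SE), had an adjusted p of 0.999 in edgeR. Unlike most of the list it hardly depended on Pontin cTG replicate 2, and it was -0.20 without that library. *Cpt1b*, whose counts are limited as described, had a log2 fold change of 0.37 ± 0.42 (SE) that was -0.14 without Pontin cTG replicate 2. *Cpt2*, which hands the acyl group back to coenzyme A inside the mitochondrion, and *Crat*, carnitine acetyltransferase, had log2 fold changes of -0.013 and -0.012 (SEs 0.15 and 0.21). *Mlycd*, the decarboxylase that removes the CPT1 inhibitor malonyl-CoA, had 1464 ± 166 normalised counts for WT against 1648 ± 279.5 for Pontin cTG (SD over n = 3 mice), a log2 fold change of 0.17 ± 0.17 (SE). *Slc22a5*, the carnitine importer OCTN2, had a log2 fold change of -0.036 ± 0.16 (SE).

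Among the 9 enzymes of the β-oxidation spiral, Pontin cTG replicate 3 was the highest heart for all 9 and replicate 2 the lowest for 8, all but *Acads*. Their log2 fold changes lay between -0.063 and 0.19 (SEs 0.17 to 0.24), 5 above and 4 below 0, and 0 had groups without overlap. *Acadm*, medium-chain acyl-CoA dehydrogenase, had normalised counts of 16469, 15740.4 and 16168 for WT hearts 1 to 3 against 16995, 10634 and 21061 for Pontin cTG hearts 1 to 3. *Hadha*, the α subunit of the mitochondrial trifunctional protein, had normalised counts of 19286, 19964 and 18719.8 for WT hearts 1 to 3 against 19233, 13680.1 and 22585 for Pontin cTG hearts 1 to 3. In both, the WT hearts lay close together, Pontin cTG replicate 3 was highest and replicate 2 lowest. *Hadhb*, the β subunit, had 13255 normalised counts in Pontin cTG replicate 2 and 23682 in replicate 3, against 18468 to 19540.1 in WT hearts. Against the mean of the other 2 Pontin cTG hearts, replicate 2 was at -0.85 on the log2 scale for *Hadh*, -0.83 for *Acadm*, -0.75 for *Acadvl*, -0.69 for *Hadhb*, -0.61 for *Hadha*, -0.49 for *Acadl*, -0.44 for *Echs1*, -0.44 for *Acaa2* and -0.40 for *Acads*. These are the dehydrogenases for chains of different length, the enoyl-CoA hydratase, the hydroxyacyl-CoA dehydrogenase and the thiolases, and all 9 were lower there. *Acaa2*, the medium-chain thiolase, had the highest log2 fold change of the 9, with normalised counts of 10133, 10550.0 and 11088 for WT hearts 1 to 3 against 11932, 9727 and 14602 for Pontin cTG hearts 1 to 3. Pontin cTG replicate 2 alone kept its groups from separating. Its log2 fold change of 0.19 ± 0.17 (SE) was 0.33 without that library and 0.033 without replicate 3.

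*Hadha* and *Hadhb* lie head to head on chromosome 5 and are transcribed away from each other. In RefSeq on GRCm38.p6 their start sites have 272 bases between them, and the promoter windows of 300 bases, 250 before to 50 after each start, share 228 bases. The sequence is shown because these 2 genes encode the subunits of 1 protein complex. Both were highest in Pontin cTG replicate 3 and lowest in replicate 2, as were most enzymes of the spiral. The sequence is the *Hadha* window, chr5:30154931-30155230 on the minus strand, with the bases that also lie in the *Hadhb* window in capitals.
Hadha: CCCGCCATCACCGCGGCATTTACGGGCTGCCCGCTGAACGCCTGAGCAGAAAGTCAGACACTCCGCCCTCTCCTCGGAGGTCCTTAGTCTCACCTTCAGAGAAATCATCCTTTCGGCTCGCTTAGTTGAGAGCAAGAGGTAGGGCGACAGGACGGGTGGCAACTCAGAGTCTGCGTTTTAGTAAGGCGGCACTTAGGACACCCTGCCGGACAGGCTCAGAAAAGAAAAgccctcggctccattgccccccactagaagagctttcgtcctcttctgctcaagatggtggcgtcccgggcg
The promoter windows of *Acadm* (chr3:153944594-153944893, minus strand) and *Cpt1a* (chr19:3323051-3323350, plus strand) are shown as well. *Acadm* was low in Pontin cTG replicate 2, and *Cpt1a* was lower in all 3 Pontin cTG hearts after TMM scaling, by a narrow gap. Whether the sequence of these windows bears on either pattern was not tested. Capitals mark AGGTCA, the hexamer that nuclear receptors such as PPARs and ERRs recognise, found on the opposite strand in both (as TGACCT), at -249 from the start of *Acadm* and -94 from that of *Cpt1a*.
Acadm: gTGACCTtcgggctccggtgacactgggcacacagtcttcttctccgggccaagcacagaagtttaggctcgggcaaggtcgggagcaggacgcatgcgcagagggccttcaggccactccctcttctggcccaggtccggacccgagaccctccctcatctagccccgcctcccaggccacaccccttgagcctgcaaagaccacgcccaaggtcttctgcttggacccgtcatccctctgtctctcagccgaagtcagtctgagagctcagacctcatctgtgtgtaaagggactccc
Cpt1a: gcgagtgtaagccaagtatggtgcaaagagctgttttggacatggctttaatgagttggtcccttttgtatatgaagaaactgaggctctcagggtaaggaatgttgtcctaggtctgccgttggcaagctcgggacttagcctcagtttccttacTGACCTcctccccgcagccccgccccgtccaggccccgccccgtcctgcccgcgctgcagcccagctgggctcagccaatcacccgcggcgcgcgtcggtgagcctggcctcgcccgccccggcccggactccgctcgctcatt
RefSeq windows were found for 31 of the 38 genes. AGGTCA, read on both strands, was in 8 of their 35 windows (22.9%), those of *Acadm*, *Acadvl*, *Cd36*, *Cpt1a*, *Echs1*, *Plin5* and *Ucp3*, and in 16.3% of all 32851 windows. The direct repeat of this hexamer with 1 base between the copies, the form bound by PPARs, and TCAAGGTCA, the form bound by ERRs, both of which hold AGGTCA, were in 0 of the 35 windows and in 0.0396% and 0.423% of all windows. No match says only that these letters are not in these windows.

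The enzymes that prepare unsaturated chains, *Eci1*, *Eci2* and *Decr1*, had log2 fold changes of 0.22, 0.069 and 0.048 (SEs 0.16, 0.15 and 0.19), and without Pontin cTG replicate 2 these were 0.33, 0.18 and 0.24. Without replicate 3 instead they were 0.13, -0.034 and -0.090. In all 3, Pontin cTG replicates 1 and 3 lay above every WT heart. *Ehhadh*, the bifunctional enzyme of peroxisomal β-oxidation, had a log2 fold change of -0.057 ± 0.18 (SE).

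Among the electron transfer flavoproteins, which pass the electrons of β-oxidation to ubiquinone, *Etfb* (ENSMUSG00000004610, chromosome 7 from 43093507 to 43107224 on GRCm39) had the smallest p of the list. It had normalised counts of 782, 728 and 770.2 for WT hearts 1 to 3 against 898, 1070.3 and 1014 for Pontin cTG hearts 1 to 3. The groups did not overlap, and here Pontin cTG replicate 2 was the highest heart. The means were 760.0 ± 28.3 normalised counts for WT against 994 ± 87.8 for Pontin cTG (SD over n = 3 mice), a 1.31-fold difference. Its log2 fold change of 0.39 ± 0.12 (SE) had an unadjusted p of 0.0127 (edgeR), which became 0.999 when adjusted. Its adjusted p was between 0.844 and 1.000 under the 15 alternatives (edgeR, DESeq2 and limma-voom). The counts of *Etfb* are limited by the exon bases it shares with other genes, as described, and the effect was not tested. Its partner subunit *Etfa* did not share the pattern of *Etfb* among the hearts. For *Etfa*, replicate 2 was the lowest heart, at -0.57 on the log2 scale against the mean of the other Pontin cTG hearts, and the log2 fold change of 0.11 ± 0.19 (SE) was 0.27 without replicate 2 and -0.082 without replicate 3. *Etfdh*, the dehydrogenase that takes up the electrons from both subunits' complex, had a log2 fold change of -0.065 ± 0.21 (SE), and replicate 2 was at -0.75 against the mean of the other Pontin cTG hearts on the log2 scale, where *Etfb* was at 0.16.

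The 3 thioesterases, which split acyl-CoA back to free fatty acid, differed among themselves. *Acot13* had normalised counts of 2742, 2387 and 2636 for WT hearts 1 to 3 against 2809.9, 3414 and 2843 for Pontin cTG hearts 1 to 3. Its groups did not overlap, Pontin cTG replicate 2 was highest, and the log2 fold change of 0.22 ± 0.14 (SE) was 0.13 without that library. *Acot1* had 216 ± 51.4 normalised counts for WT against 259 ± 113 for Pontin cTG (SD over n = 3 mice), a log2 fold change of 0.27 ± 0.33 (SE). Pontin cTG replicates 1 and 3 had its 2 highest values, 309 and 339, and replicate 2 its lowest, 130.1. Its log2 fold change was 0.59 without replicate 2 and 0.024 without replicate 3. *Acot2* had a log2 fold change of -0.020 ± 0.17 (SE).

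*Pdk4*, the kinase that shuts off pyruvate dehydrogenase when fat is burned, had the largest ratio of the highest to the lowest heart in the whole list. It had normalised counts of 9556, 10688 and 15369.6 for WT hearts 1 to 3 against 18633, 4934 and 9768 for Pontin cTG hearts 1 to 3. Pontin cTG replicate 1 was highest and replicate 2 lowest of all 6 hearts, and its log2 fold change of -0.096 carried an SE of 0.41. Nutritional state is known to move this gene, and the feeding state at collection is not given in the sources used here. *Ucp3*, a mitochondrial carrier induced by fatty acids, had normalised counts of 822, 1024 and 1027 for WT hearts 1 to 3 against 962, 669 and 895 for Pontin cTG hearts 1 to 3. The groups overlapped, with a log2 fold change of -0.19 ± 0.17 (SE).

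**Figure D4:**
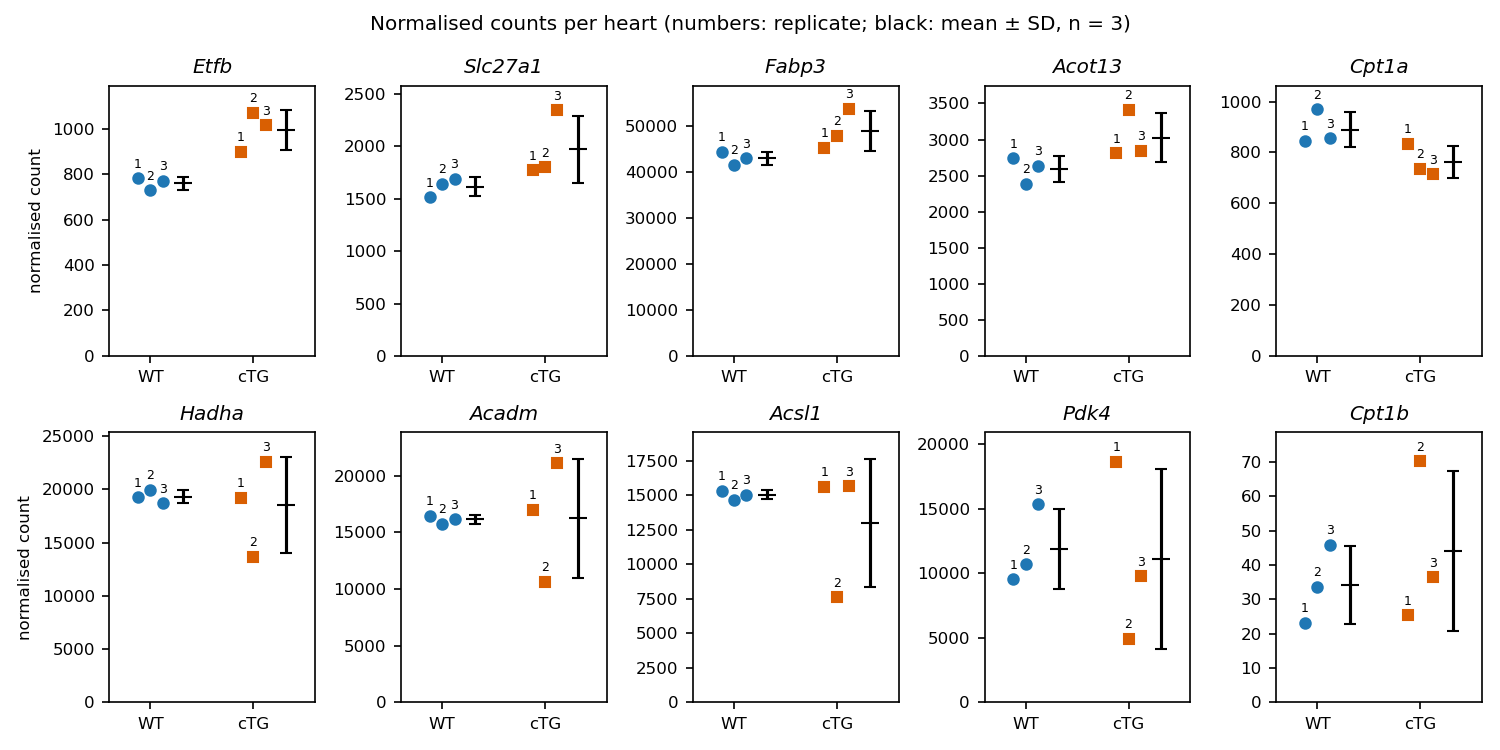
Each panel plots the normalised counts of a gene per heart (circles WT, squares Pontin cTG, numbered by replicate), with the mean and SD of 3 hearts in black, on axes from 0. Upper row: the 5 genes whose groups do not overlap, *Cpt1a* being the lower one. Lower row: genes in which Pontin cTG replicate 2 is the lowest heart (*Hadha*, *Acadm*, *Acsl1*, *Pdk4*) or the highest (*Cpt1b*).

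**Figure D5:**
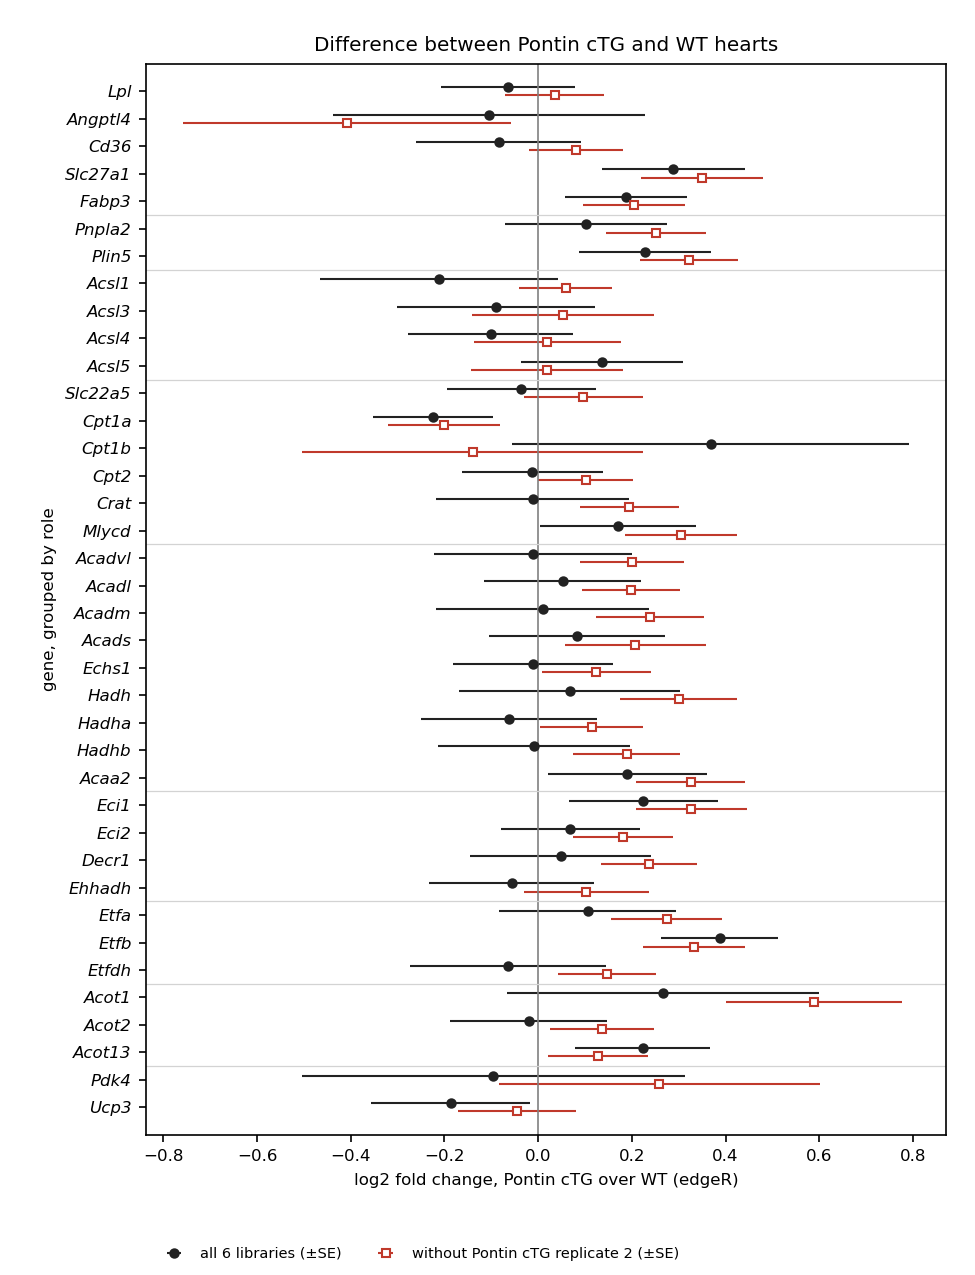
Points give the log2 fold change of Pontin cTG over WT from edgeR with its standard error, with all 6 libraries (black) and without Pontin cTG replicate 2 (red, open), for all 38 genes grouped by role. Black points lie on both sides of 0 (19 above), most red points lie above 0 (34), and *Etfb* and *Cpt1a* change little between the fits.

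A wider list of 85 other genes of fatty acid handling had 79 genes tested, 40 with higher and 39 with lower fitted levels in Pontin cTG hearts and a median log2 fold change of 0.014. None passed the adjusted p of 0.05 in edgeR, and an unadjusted p under 0.05 was seen for 0. Groups were apart for 5 higher genes (6.33% of the tested genes of the list, against 4.7% of all genes), *Acot8*, *Acaa1a*, *Dbi*, *Mcat* and *Ech1*, and for 1 lower gene, *Acad11* (1.27% against 3.63%). *Acot8* and *Acaa1a* act in peroxisomes, as a thioesterase and a thiolase. In WT and Pontin cTG hearts *Acaa1a* had 931 ± 68.1 and 1102 ± 64.5 normalised counts (SD over n = 3 mice), with a log2 fold change of 0.24 ± 0.12 (SE). *Acot8* had 70.9 ± 5.83 and 94.9 ± 6.09 and a log2 fold change of 0.42 ± 0.19 (SE). Without Pontin cTG replicate 2 the median of this list was 0.083.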

How the data were processed

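RNA of 6 hearts (3 Pontin cTG, 3 WT littermates) was sequenced, 1 library per heart. The authors deposited whole-number counts per Ensembl gene with no normalisation, in 1 table whose columns were matched to samples by the column names in the labels (0 sample columns unmatched). For how they were made, the submitters' processing notes name fastp, HISAT2, featureCounts, DESeq2 and GRCm39, whereas the study's methods name Trimmomatic, STAR, mm10 and Gencode M25. The table's coordinates are given as listed and were taken to be GRCm39. Promoter sequences are RefSeq's on GRCm38.p6 and shared exons and transcript words are from GENCODE M21. Coordinates of the builds were not mixed.

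Genes were filtered with filterByExpr (minimum count 10), which kept 13888 of 56748. After TMM scaling, genotypes were tested in edgeR 4.0.16 (quasi-likelihood, robust, genotype as the only term, Benjamini-Hochberg adjustment) in R 4.3.3. In the text a log2 fold change is Pontin cTG over WT. The common biological coefficient of variation was 0.197. Standard errors (SE) are the log2 fold change divided by the square root of F. Normalised counts are counts over TMM-scaled library size times the geometric mean of these sizes, and levels are CPM of the scaled library size per kilobase of the table's gene length. Alternatives were DESeq2 1.42.0, limma-voom (3.58.1) with sample quality weights, other size factors and filters, other gene sets, a replicate block and each library left out in turn. The tests were first tried on simulated counts. The genes, their roles and the wider lists were chosen with earlier results of these data known. Values per heart are given for genes whose groups do not overlap, with an unadjusted p under 0.05, with the 3 highest or lowest log2 fold changes or the 3 highest levels, and for 9 gatekeepers of their steps. The markers of 9 cell types were summed as CPM of all counts. Libraries of every pair differed by more than counting noise (chi-square per gene at least 5.64). The labels call the samples biological replicates.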

Additional observations from a re-analysis of the deposited data

How the results depend on the processing

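The count of listed genes past an adjusted p of 0.05 was 0 under all 15 alternatives. Over all genes it was 1 with DESeq2, 3 with no filter on low counts, 3 with limma-voom, and 0 to 3 with a library left out, the 3 without Pontin cTG replicate 2. Listed genes at an unadjusted p under 0.05 numbered 2 with library size alone (both higher, as were 1.33% of all genes), 6 with limma-voom (all higher, 2.82% of all genes) and 1 to 11 with a library left out (11 without Pontin cTG replicate 2). Higher genes numbered 33 with limma-voom, which weights libraries (47.8% of all genes were higher), and 13 to 34 with a library left out. Their median log2 fold change was 0.11 with limma-voom and -0.077 to 0.18 with a library left out. Genes without overlap numbered 5 to 22 with a library left out: leaving out WT replicate 3 gave 8 (16.8% of all genes) and leaving out Pontin cTG replicate 2 gave 22 (21.5% of all genes). *Cpt1b*, with 21 to 82 counts, had the largest SE of the list (0.42). What kept its counts low was not tested.

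Of the 15 genes given heart by heart, 6 kept their direction throughout (*Slc27a1*, *Fabp3*, *Cpt1a*, *Acaa2*, *Etfb*, *Acot13*). Signs turned with limma-voom for *Cd36* (0.020), *Hadha* (0.044), *Pdk4* (0.32) and *Ucp3* (0.031). With a library left out, log2 fold changes ran over -0.16 to 0.035 for *Lpl*, -0.41 to 0.21 for *Angptl4*, -0.20 to 0.081 for *Cd36*, -0.37 to 0.059 for *Acsl1*, -0.14 to 0.65 for *Cpt1b*, -0.22 to 0.24 for *Acadm*, -0.23 to 0.11 for *Hadha* and -0.69 to 0.26 for *Pdk4*. The cause was not tested.

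The replicate numbers were checked for pairing. Over all genes tested, same-numbered WT and Pontin cTG libraries had correlations of 0.069, 0.43 and 0.19 of their deviations. Over the 9074 genes with a mean log2 CPM above 3 they were 0.16, 0.45 and 0.20. In both gene sets WT replicate 1 correlated best with Pontin cTG replicate 3 (0.25 and 0.31). The numbers were not taken as pairs, since over all genes 1 correlation was under 0.1, but the more highly expressed genes alone would meet that bar. With the replicate block, 0 genes were called, 499 of all genes and 1 listed gene had an unadjusted p under 0.05 (without it 285 and 1), 18 listed genes were higher and the sign of *Acadm* turned (-0.045).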
